A study of Homo sapiens with 4 samples.

Results

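The genes of azurophil granule and myeloid secretory proteins were examined in the cell line THP1 with and without silencing of MLL-AF9. The set held 10 genes: the granule serine protease genes ELANE, PRTN3 and CTSG, the protease homolog AZU1, the peroxidase gene MPO, the ribonuclease genes RNASE2 and RNASE3, the lysozyme gene LYZ, the complement protease gene CFD and the protease inhibitor gene SERPINB1. All probes named for these genes on the arrays were taken, provided that they were not control spots and had a spot weight above 0 on every array. This gave 10 probes of 9 genes, out of 26219 probes of 20654 named genes. LYZ was not analysed here.

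Azurophil granules are the first granules that form in the promyelocyte, the early precursor of neutrophils, and monocytes carry related granules. They store elastase (ELANE), proteinase 3 (PRTN3), cathepsin G (CTSG), azurocidin (AZU1, a relative of these proteases without protease activity) and myeloperoxidase (MPO), which together act on ingested microbes. Transcription of these genes is highest in the early precursors and falls as the cells mature, while the proteins stay in the granules. SERPINB1 is a cytosolic inhibitor of elastase, proteinase 3 and cathepsin G.

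THP1 is an established human cell line of acute myeloid leukemia, subtype M5 (monocytic), that carries the fusion gene MLL-AF9. The cells received siRNA-A or siRNA-B, both directed at the fusion point of the MLL-AF9 transcript, or 1 of the non-targeting control siRNA-1 and control siRNA-2. All cells were treated on days 0, 3 and 6 and harvested on day 8, and all were moved to medium with little serum on day 6. Total RNA was hybridized to 4 single-colour Agilent arrays of 1 slide, 1 array for each siRNA, and each array held a pool of 5 independent experiments. Knockdown was thus represented by 2 arrays and control by 2 arrays, and the tests measure the spread between pools of 1 cell line. The knockdown arrays lay at slide positions 1 (siRNA-B) and 2 (siRNA-A) and the control arrays at positions 3 and 4, so that position and treatment cannot be told apart.

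Spots well above background made up 70% with siRNA-B and 71.2% with siRNA-A, against 74.3% on both control arrays, and the median log2 intensity ranged from 8.17 to 8.26. Both probes of MLLT3, the gene of AF9, were lower after knockdown: A_23_P216693 had log2 intensities of 6.82 with siRNA-A and 6.87 with siRNA-B against 7.59 and 7.61 in the controls. These probes may read the wildtype as well as the fusion transcript, and their place relative to the fusion point is not reported here. All 11 monocytic marker genes with a probe, among them CD33, CSF1R, ITGB2 and SPI1, were well above background on all arrays.

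All 10 probes of the granule and secretory genes were well above background on all 4 arrays, none was saturated or marked as an outlier, and each was printed on 1 spot. For 7 of them the mean log2 intensity was at least 14, a level reached by 1223 of all 26219 probes (called bright in the following). The probe sequences are shown for the neighbouring genes of the serine protease family, because the difference between these genes rests on 1 probe each, and for both probes of RNASE2, which gave different array orders. Coordinates of probes are those of the array annotation in build hg19. The ELANE probe aligned to chr19:853356-855575 on the plus strand and spans 2220 bases of the genome with its 60 bases, so it crosses an intron. The PRTN3 probe lay at chr19:847827-847886 and the AZU1 probe at chr19:831799-831858, both on the plus strand. RNASE2 probe 1 (A_23_P151637) lay at chr14:21424175-21424234 and RNASE2 probe 2 (A_32_P1712) at chr14:21424239-21424297, both on the plus strand. The probes of CTSG (chr14:25042788-25042847), MPO (chr17:56347868-56347927) and SERPINB1 (chr6:2833864-2833923) lay on the minus strand, and those of CFD (chr19:863247-863306) and RNASE3 (chr14:21359591-21359880, across an intron) on the plus strand.
ELANE: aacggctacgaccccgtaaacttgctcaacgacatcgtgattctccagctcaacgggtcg
PRTN3: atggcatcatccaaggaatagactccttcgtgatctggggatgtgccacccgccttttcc
AZU1: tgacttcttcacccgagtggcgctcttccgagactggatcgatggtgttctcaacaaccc
RNASE2 probe 1: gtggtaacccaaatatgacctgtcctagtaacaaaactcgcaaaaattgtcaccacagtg
RNASE2 probe 2: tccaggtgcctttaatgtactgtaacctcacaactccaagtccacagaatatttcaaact
No run is set in capitals because the whole probe is the measured target.

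ELANE, PRTN3 and CTSG were lower on both knockdown arrays than on both control arrays, whereas AZU1 overlapped. ELANE, neutrophil elastase, had log2 intensities of 16.41 with siRNA-A and 16.33 with siRNA-B, against 16.81 and 16.87 with control siRNA-1 and control siRNA-2. Both knockdown arrays were low, and they lay closer to each other than to any control array. The log2 fold change (knockdown minus control) of ELANE was −0.47 (standard error 0.11, 95% interval −0.72 to −0.22), which is 72.2% of the control level. ELANE was the only member called, which means an unadjusted limma p under 0.005, and its adjusted p (Benjamini-Hochberg, all 26219 probes) was 0.277. With any 1 of the 4 arrays left out the difference was −0.51 to −0.43 and ELANE was not called. CTSG, cathepsin G, was the brightest of these probes, at 18.23 (siRNA-A) and 18.12 (siRNA-B) against 18.50 and 18.70 in the controls. The controls of CTSG differed more from each other than those of ELANE did, and the groups did not overlap. CTSG changed by −0.43 on the log2 scale (standard error 0.12, 95% interval −0.70 to −0.15), with an adjusted p of 0.414. The CTSG spot reached an intensity of 425480 on the array of control siRNA-2, under the saturation value of 779133.

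PRTN3, proteinase 3, had log2 intensities of 15.53 with siRNA-A and 15.35 with siRNA-B against 15.76 and 15.80 in the controls. The control arrays nearly coincided, and both knockdown arrays lay below them. The log2 fold change of PRTN3 was −0.34 (standard error 0.12, 95% interval −0.60 to −0.072) (adjusted p = 0.520). AZU1, azurocidin, had log2 intensities of 16.41 with siRNA-A, 16.25 with siRNA-B, 16.34 with control siRNA-1 and 16.38 with control siRNA-2. Here siRNA-A gave the highest array and siRNA-B the lowest, with both controls between them. Its log2 fold change was −0.028 with a 95% interval of −0.29 to 0.23 (adjusted p = 0.979), which leaves room for a change of either sign.

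**Figure D1:**
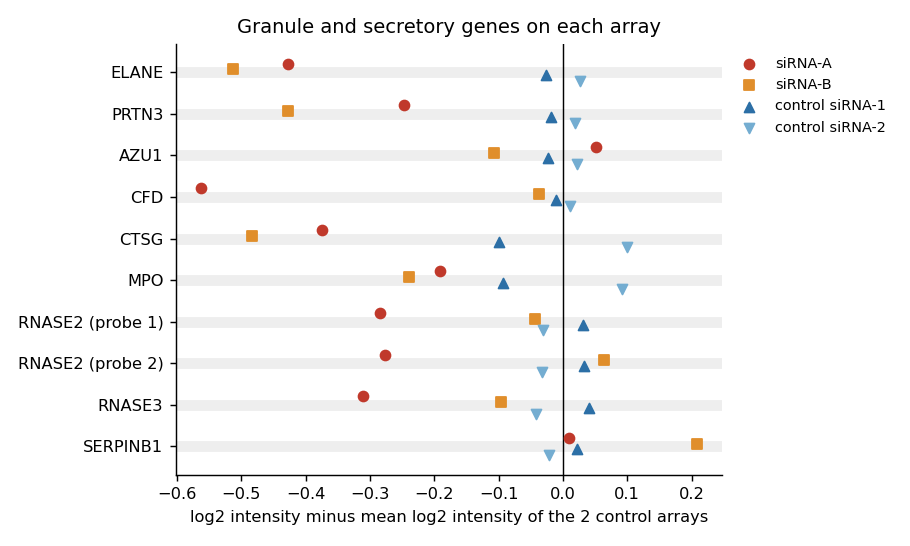
Log2 intensity of each probe on each of the 4 arrays, as the difference from the mean of the 2 control arrays (x axis), with 1 row for each probe and 1 symbol for each siRNA. ELANE lies at −0.43 (siRNA-A) and −0.51 (siRNA-B), AZU1 at 0.051 and −0.11, and CFD at −0.56 and −0.038, while no control array is farther than 0.10 from the control mean.

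MPO, which makes hypochlorous acid from hydrogen peroxide and chloride, was measured at log2 intensities of 10.04 with siRNA-A and 9.99 with siRNA-B against 10.13 and 10.32 in the controls. The groups did not overlap, but the control arrays differed by nearly as much as the groups. The log2 fold change of −0.22 (95% interval −0.48 to 0.051) was not called (adjusted p = 0.716), and it was −0.12 without control siRNA-2 and −0.31 without control siRNA-1. CFD, complement factor D, is a serine protease of the alternative complement pathway that adipocytes and monocytic cells secrete. Its log2 intensity was 15.68 with siRNA-A but 16.21 with siRNA-B, against 16.24 and 16.26 in the controls. CFD was therefore low on 1 array, while the array of siRNA-B nearly reached the controls. The log2 fold change of CFD was −0.30 with a standard error of 0.17 (adjusted p = 0.725), and it was −0.56 with siRNA-A alone and −0.038 with siRNA-B alone.

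RNASE2 (eosinophil-derived neurotoxin) and RNASE3 (eosinophil cationic protein) are antimicrobial ribonucleases of the RNase A family that arose from 1 ancestral gene by duplication. RNASE2 probe 1 had log2 intensities of 14.91 with siRNA-A and 15.15 with siRNA-B against 15.23 and 15.17 in the controls. RNASE2 probe 2 had 14.51 with siRNA-A and 14.85 with siRNA-B against 14.82 and 14.76. On both probes siRNA-A gave the lowest array, and on probe 2 siRNA-B gave the highest, so the probes disagreed on the overlap of the groups. RNASE3 had log2 intensities of 13.02 with siRNA-A and 13.24 with siRNA-B against 13.37 and 13.29, without overlap. The log2 fold changes were −0.16 and −0.11 for the RNASE2 probes and −0.20 for RNASE3 (−0.044, 0.063 and −0.097 with siRNA-B alone), and none was called (adjusted p = 0.805, adjusted p = 0.894 and adjusted p = 0.746). The array annotation lists a shared transcript for these 3 probes, so that the values of RNASE2 and RNASE3 may contain signal of the other gene and are uncertain as separate measurements.

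SERPINB1, which inhibits the proteases above, was the member with a positive difference. Its log2 intensity was 11.86 with siRNA-A and 12.06 with siRNA-B against 11.87 and 11.83 in the controls, so only siRNA-B lay above both controls. The log2 fold change of 0.11 (95% interval −0.16 to 0.38) was not called (adjusted p = 0.876), and it was 0.21 with siRNA-B alone and 0.0089 with siRNA-A alone.

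**Figure D2:**
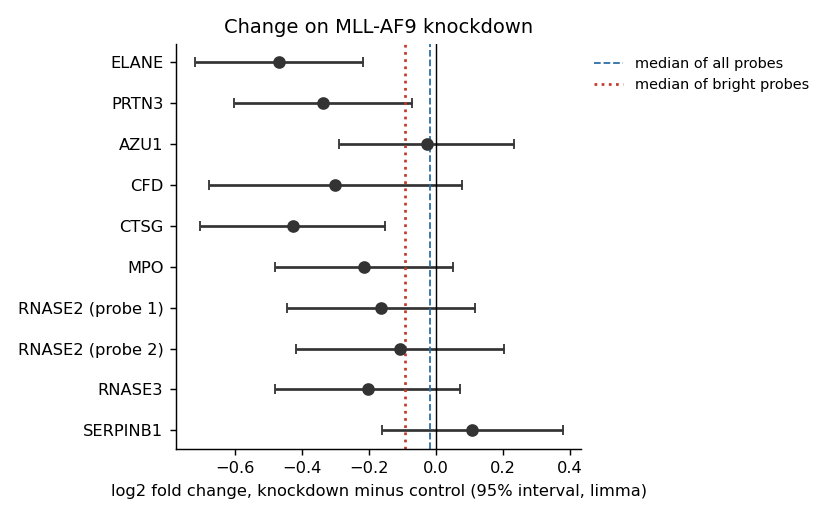
Log2 fold change (knockdown minus control, x axis) of each probe with its 95% interval from limma over 2 knockdown and 2 control arrays. The intervals of ELANE, PRTN3 and CTSG lie below 0 and those of the other 7 probes include 0; the dashed line marks the median of all probes (−0.018) and the dotted line that of the bright probes (−0.093).

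Of the 10 probes 1 (ELANE) was called lower and 0 were called higher, where 0.732% of all 26219 probes were called lower and 0.584% higher. Under an unadjusted limma p of 0.05 there were 3 probes (ELANE, CTSG and PRTN3), against 8.06% of all probes and 9.89% of bright probes, and 0 probes had an adjusted p under 0.05 with limma. The median log2 fold change was −0.21, against −0.018 over all probes, and it was −0.10 without siRNA-A and −0.11 with normexp. Both knockdown arrays lay below both controls in 7 of the 10 probes (ELANE, CTSG, PRTN3, MPO, RNASE3, CFD and probe 1 of RNASE2), against 21.4% of all probes, and above both controls in 0, against 15.2% of all probes. With 2 arrays against 2 an exact two-sided permutation test of a single probe cannot give a p below 0.333.

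Brightness moved with these differences. Among the 1223 bright probes the median log2 fold change was −0.093, and 77.5% were lower after knockdown, against 55.5% of all probes. Both knockdown arrays lay below both controls in 41.4% of bright probes, and 1.47% of bright probes were called lower and 0 were called higher. Of the 7 bright member probes 5 lay below both controls (ELANE, CTSG, PRTN3, CFD and RNASE2 probe 1). After quantile normalization, which gives every array the same distribution, the median of the bright probes was −0.003, and 5 member probes stayed below both controls, against 20.9% of bright probes and 19.7% of all probes. These 5 were ELANE, CTSG, PRTN3, MPO and RNASE3, and ELANE was then not called. The parts of treatment and of slide position in the lower bright signal cannot be told apart.

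**Figure D3:**
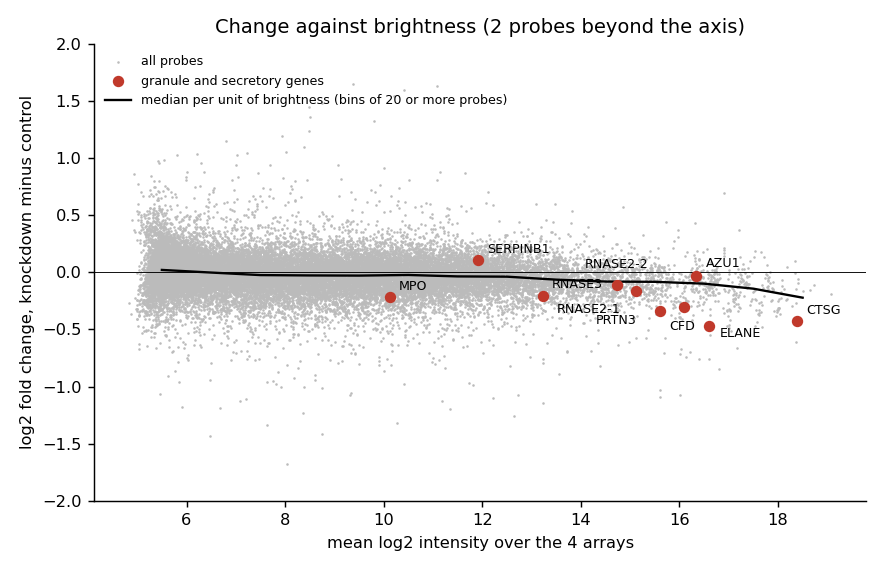
Log2 fold change (knockdown minus control, y axis) against the mean log2 intensity over the 4 arrays (x axis) for all 26219 probes in grey and the 10 member probes in red, with the median for each unit of log2 intensity as a black line. The line falls below 0 at the bright end, and ELANE (−0.47), CTSG (−0.43) and PRTN3 (−0.34) lie below it whereas AZU1 (−0.028) lies slightly above it.

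Ratios of probes within an array do not depend on the overall signal of that array, and were compared for the 6 pairs among AZU1, PRTN3, ELANE and CFD and for RNASE2 against RNASE3. The log2 ratio of ELANE to AZU1, set to 0 at the control mean, was −0.48 with siRNA-A and −0.41 with siRNA-B, while the controls lay at −0.0034 and 0.0034. ELANE thus changed unequally to AZU1 on both knockdown arrays, although both probes are of similar brightness. The log2 ratio of PRTN3 to AZU1 was −0.30 with siRNA-A and −0.32 with siRNA-B, with controls at 0.0042 and −0.0042. The difference ranged from −0.48 to −0.25 for ELANE and from −0.32 to −0.18 for PRTN3 over the 12 alternative settings. The log2 ratio of ELANE to PRTN3 was −0.18 with siRNA-A and −0.086 with siRNA-B, against −0.0076 and 0.0076 in the controls.

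The ratio of CFD to AZU1 was −0.61 with siRNA-A but 0.069 with siRNA-B, so the 3 pairs with CFD overlapped between the groups. RNASE2 probe 1 and RNASE3 nearly kept their ratio, which on the log2 scale was 0.026 with siRNA-A and 0.053 with siRNA-B against −0.010 and 0.010 in the controls. No test was made on the ratios. Each rests on 1 spot a gene, and among bright probes printed on 10 or more spots the log2 fold changes of identical spots had a median SD of 0.0786.

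The members differed in which siRNA gave the lower value. ELANE, CTSG, PRTN3, AZU1 and MPO were lower with siRNA-B than with siRNA-A, with log2 differences (siRNA-B minus siRNA-A) of −0.049 (MPO) to −0.18 (PRTN3). RNASE2, RNASE3, CFD and SERPINB1 were lower with siRNA-A, with log2 differences of 0.20 (SERPINB1) to 0.52 (CFD). For these genes and for AZU1 the difference between the siRNAs exceeded that between knockdown and control in size, whereas for ELANE, CTSG, PRTN3 and MPO it was smaller. Over all probes siRNA-A lay below both controls in 45.3% and siRNA-B in 33.2%, and over bright probes in 72.8% and 49%. Each siRNA was measured on 1 array, so the difference between them has no replicate.

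Promoter sequence was read for 7 of the 10 genes (RefSeq, GRCh38.p14), and 250 bases before the annotated start were searched on both strands. The promoters of AZU1 and PRTN3 are shown because these neighbours gave different values, that of CTSG because it had the second-largest difference, and those of RNASE2 and RNASE3 because RNASE3 and RNASE2 probe 1 had the same order of arrays. AZU1 (chr19:827587-827836) and PRTN3 (chr19:840749-840998) lie on the plus strand, CTSG (chr14:24576251-24576500) on the minus strand, and RNASE2 (chr14:20955237-20955486) and RNASE3 (chr14:20891135-20891384) on the plus strand. Capitals mark GAGGAA or its reverse complement, the core of sites bound by PU.1 (gene SPI1), a transcription factor of myeloid cells.
AZU1: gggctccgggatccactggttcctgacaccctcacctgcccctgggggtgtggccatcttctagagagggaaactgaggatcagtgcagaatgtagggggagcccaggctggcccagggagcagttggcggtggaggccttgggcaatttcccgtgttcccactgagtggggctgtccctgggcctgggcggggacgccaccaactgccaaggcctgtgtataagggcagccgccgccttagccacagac
PRTN3: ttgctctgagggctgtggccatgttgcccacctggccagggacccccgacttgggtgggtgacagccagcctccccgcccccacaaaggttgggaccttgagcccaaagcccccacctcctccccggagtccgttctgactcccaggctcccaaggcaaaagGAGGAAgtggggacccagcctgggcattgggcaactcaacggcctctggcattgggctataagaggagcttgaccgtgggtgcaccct
CTSG: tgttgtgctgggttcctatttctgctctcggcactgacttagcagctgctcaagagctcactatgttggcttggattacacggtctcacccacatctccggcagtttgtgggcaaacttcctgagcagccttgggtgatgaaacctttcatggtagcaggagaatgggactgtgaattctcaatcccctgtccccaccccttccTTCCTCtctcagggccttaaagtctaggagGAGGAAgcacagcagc
RNASE2: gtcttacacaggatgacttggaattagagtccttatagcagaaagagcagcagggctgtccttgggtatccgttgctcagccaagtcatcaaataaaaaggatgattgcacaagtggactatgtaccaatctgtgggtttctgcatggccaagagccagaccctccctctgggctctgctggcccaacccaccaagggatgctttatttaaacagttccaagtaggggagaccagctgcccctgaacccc
RNASE3: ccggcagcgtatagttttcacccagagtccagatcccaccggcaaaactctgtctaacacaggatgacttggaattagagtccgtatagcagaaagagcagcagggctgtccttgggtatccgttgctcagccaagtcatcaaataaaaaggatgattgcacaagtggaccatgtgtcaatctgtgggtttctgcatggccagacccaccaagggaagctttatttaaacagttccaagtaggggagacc
GAGGAA was found once in PRTN3 and 2 times in CTSG and in none of the other 5 promoters (AZU1, RNASE2, RNASE3, CFD and SERPINB1), and 23.6% of all 35116 promoters hold it. The letters AACNG, the core of sites bound by MYB, were found in 6 of the 7 promoters (all but CFD), against 70.6% of all promoters. TTNNGNAA, a loose form of sites bound by C/EBP factors, was found in AZU1, PRTN3, RNASE2 and RNASE3, against 33.2% of all. TATAA was found in AZU1, PRTN3, RNASE2 and SERPINB1, against 18.9% of all. Occurrences may overlap each other. The promoters of RNASE2 and RNASE3 were identical at 192 of 199 aligned bases (96.5%), shifted against each other by their annotated starts. Such matches describe the letters and are no evidence of binding.

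Transcripts of the factors named by these motifs were present. MYB, read by its bright probe A_23_P31073, had log2 intensities of 16.56 and 16.63 with siRNA-A and siRNA-B against 16.58 and 16.65 in the controls. CEBPA had a log2 fold change of −0.028 and SPI1 one of −0.033. CEBPB, which rises in monocytic maturation, was at 12.67 with siRNA-A and 12.63 with siRNA-B against 12.29 and 12.35, a log2 fold change of 0.33 that was not called (adjusted p = 0.515). Of the 17 probes of 12 transcription factor genes 0 were called by limma, 1 (CEBPB) had an unadjusted p under 0.05, and the median was −0.012. Below both controls lay 1 (a RUNX1 probe, −0.20), against 21.4% of all probes. Above both controls lay 3 (CEBPB, CEBPD at 0.20 and another RUNX1 probe at 0.077), against 15.2% of all probes.

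AZU1, PRTN3, ELANE and CFD follow each other directly on the short arm of chromosome 19 (19p13.3). From BSG to POLR2E this stretch holds 26 protein-coding genes in RefSeq, of which 24 had a probe. Of the 24 probes of the 20 neighbours, 1 was called lower and 0 higher, 8 lay below and 5 above both controls (against 0.732%, 0.584%, 21.4% and 15.2% of all probes), and the median log2 fold change was −0.037. PRSS57, named PRSSL1 on the array, encodes a further serine protease of azurophil granules. Its log2 intensity was 14.44 with siRNA-A and 13.51 with siRNA-B against 14.72 and 14.87, so siRNA-B was far lower than siRNA-A. PRSSL1 differed by −0.82 on the log2 scale (standard error 0.25) with an adjusted p of 0.462, and it was −0.35 with siRNA-A alone and −1.29 with siRNA-B alone.

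PALM, which encodes a protein of the plasma membrane and lies next to PRSS57, was called lower (log2 fold change −0.47, adjusted p = 0.294). Its log2 intensities were 10.33 with siRNA-A and 10.29 with siRNA-B against 10.71 and 10.84 in the controls. With any 1 array left out PALM was at −0.54 to −0.40 and not called. PLPPR3 (LPPR3 on the array), which adjoins AZU1, had a log2 fold change of −0.28 (adjusted p = 0.578), while MED16, which adjoins CFD, had −0.030 and overlapped. POLR2E, a subunit of RNA polymerases, was at −0.31 on 1 probe (below both controls) and −0.057 on the other (overlapping). AZU1 lay between PLPPR3 and PRTN3, both of which were below both controls.

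**Figure D4:**
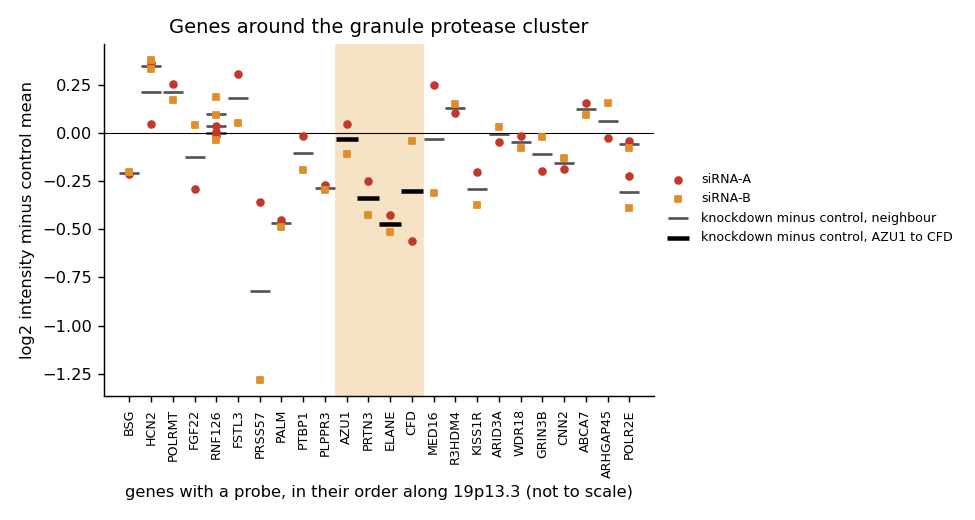
Log2 intensity minus the control mean with siRNA-A (circles) and siRNA-B (squares) and their mean (bars) for genes with a probe along 19p13.3, in chromosomal order on the x axis and not to scale, with AZU1 to CFD shaded. PRSS57 has the lowest mean (−0.82, with siRNA-B at −1.29), the means of PALM and ELANE both lie at −0.47, and that of AZU1 lies near 0.

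Other azurophil granule genes were described by 10 probes of 8 genes, of which 0 were called lower and 1 higher (0.732% and 0.584% of all probes), 5 lay below and 2 above both controls (21.4% and 15.2% of all probes), and the median log2 fold change was −0.18. DEFA3, an alpha-defensin of neutrophils, was the gene called higher. Its log2 intensity was 9.14 with siRNA-A and 9.22 with siRNA-B against 7.48 and 8.15 in the controls, so that both knockdown arrays were high and the controls differed from each other. DEFA3 differed by 1.36 on the log2 scale (standard error 0.19) with an adjusted p of 0.0632, and it was called under 8 of the 12 alternative settings, with adjusted p from 0.0200 to 0.945. The call of DEFA3 was lost without siRNA-A (1.40) or siRNA-B (1.32) and with background-subtracted signal, scaled (1.44) or unscaled (1.41). DEFA3 has nearly identical copies, DEFA1 and DEFA1B, so the probe cannot be assigned to 1 gene with certainty. DEFA4, a related defensin, had the opposite sign, with 9.94 and 9.98 after knockdown against 10.32 and 10.44 (log2 fold change −0.41, adjusted p = 0.382). The 3 probes of CTSC, the protease that activates ELANE, CTSG and PRTN3, had log2 fold changes of −0.10, −0.28 and −0.17 and none was called.

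The list of specific and gelatinase granule genes, which come later in neutrophil maturation, had 14 probes of 12 genes, of which limma called 0, with 3 at an unadjusted p under 0.05. Its median was −0.013, with 3 probes below and 3 above both controls (21.4% and 15.2% of all probes). CAMP, the cathelicidin gene, was at 8.16 and 8.38 with siRNA-A and siRNA-B against 7.66 and 7.96 (log2 fold change 0.46, adjusted p = 0.456, and 0.31 to 0.61 with any 1 array left out). TCN1, a vitamin B12 carrier of specific granules, went the other way, at 6.81 and 7.12 against 7.21 and 7.34 (log2 fold change −0.31, adjusted p = 0.621, and −0.15 with siRNA-B alone). PTX3, pentraxin 3, lay below both controls too, at −0.30 (adjusted p = 0.616). CYBB, the catalytic subunit of the NADPH oxidase, was at 11.20 and 11.48 against 11.09 and 10.79 (log2 fold change 0.40, adjusted p = 0.547), and at 0.25 to 0.55 with any 1 array left out. Among the 13 probes of heme peroxidases and NADPH oxidase that are reported here limma called 0, with 2 at an unadjusted p under 0.05. The median was −0.0051, with 1 probe below and 5 above both controls (21.4% and 15.2% of all probes). CYBB is counted in this list too. NCF1, a cytosolic oxidase subunit with nearly identical pseudogenes, lay above both controls on all 4 of its probes (0.086 to 0.50), and the highest of these was 0.22 without control siRNA-1. RAC2, a small GTPase of the oxidase, lay below both controls on probe A_24_P228717, at −0.32 (−0.026 with siRNA-B alone).

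Protease inhibitor genes had 21 probes of 16 genes, of which 3 were called higher and 0 lower (0.584% and 0.732% of all probes), 8 lay above and 1 below both controls (15.2% and 21.4% of all probes), and the median was 0.050. All 3 called genes belong to the clade B serpins, as SERPINB1 does. SERPINB2, an inhibitor of plasminogen activators, had log2 intensities of 9.55 with both siRNA-A and siRNA-B against 8.75 and 8.72 in the controls. Each pair of arrays nearly coincided, and the difference was 0.82 on the log2 scale with an adjusted p of 0.0405 (standard error 0.11). SERPINB8 was at 10.45 and 10.52 against 9.96 and 9.67 (log2 fold change 0.67, adjusted p = 0.182), and SERPINB10 at 7.60 and 7.63 against 7.11 on both control arrays (0.51, adjusted p = 0.228). SERPINB6, another clade B serpin, had log2 fold changes of −0.16 and 0.0078 on its probes. SERPINB2 was called under all 12 alternative settings, with adjusted p from 0.0164 to 1, SERPINB10 under 8 and SERPINB8 under 7. SERPINB10 lost its call without any 1 array (0.49 to 0.52), and SERPINB8 without siRNA-A (0.70), siRNA-B (0.63) or control siRNA-2 (0.52) and with background-subtracted signal, scaled (0.57) or unscaled (0.54).

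In the remaining lists 0 probes were called by limma, and at an unadjusted p under 0.05 there were 1 of the RNase A family, 4 of the granzymes and related proteases (GZMH, PRSSL1 and both probes of PLAU), 3 of the complement genes, 1 of the lysozyme family and 0 of the eosinophil and mast cell granule genes, where 8.06% of all probes passed that threshold. The last of these had 7 probes with a median of −0.11, of which 1 (HDC, −0.076) lay below and 0 above both controls (21.4% and 15.2% of all probes). RNase A family genes beside RNASE2 and RNASE3 had 6 probes, 3 above and 0 below both controls (15.2% and 21.4% of all probes), with a median of 0.068. RNH1, the cytosolic ribonuclease inhibitor listed with them, was at 13.19 and 13.16 against 12.76 and 12.90 (log2 fold change 0.34, adjusted p = 0.499), and RNASE7 (0.21) and ANG (0.10) also lay above both controls. Granzymes and related serine proteases had 9 probes with a median of 0.067, and GZMH, which neighbours CTSG on chromosome 14, had a log2 fold change of −0.40 (adjusted p = 0.476), which was −0.26 without control siRNA-2 and −0.84 with unscaled background-subtracted signal. PLAU, the urokinase gene, had a log2 fold change of 0.32 on each of its probes, and 0.20 and 0.28 with siRNA-A alone. Complement genes beside CFD had 15 probes with a median of 0.052, among them CFP, properdin, at −0.42 (adjusted p = 0.450). C2 (probe A_33_P3404601) and ITGAX (probe A_23_P312132) were at 0.62 each (adjusted p = 0.445 and adjusted p = 0.424), but both were at 0.36 with siRNA-A alone and 0.87 with siRNA-B alone, and the other probe of each gene overlapped between the groups. The lysozyme relatives of LYZ had 7 probes with a median of −0.073, and the LYG2 probe A_23_P5703 was at −0.30, while the other LYG2 probe was at −0.073 and overlapped. SPACA3 (−0.26) lay below and SPACA5 (0.19) above both controls. Several of these probes were dim, under the array medians of 8.17 to 8.26. Their mean log2 intensities were 6.04 (HDC), 5.50 (RNASE7), 6.49 (ANG), 6.22 (GZMH), 6.17 (LYG2 probe A_23_P5703), 6.28 (SPACA3) and 5.75 (SPACA5).

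**Figure D5:**
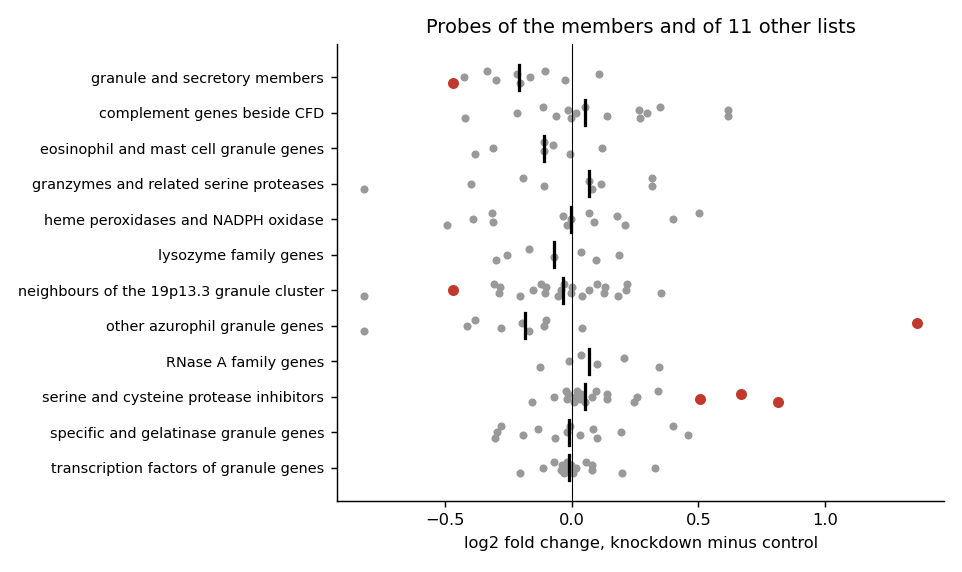
Log2 fold change (knockdown minus control, x axis) of each probe in the member set and in 11 other lists, with called probes in red, other probes in grey and the list median as a black bar. The members have a median of −0.21 and the other azurophil granule genes one of −0.18, and the called probes of the protease inhibitors lie at 0.51 to 0.82.

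Markers of other cells were compared because eosinophils, mast cells and neutrophils express several members. Mature neutrophil markers had 3 probes: CSF3R and CXCR2 were above background on all arrays, CEACAM8 was above background on 1 control array, and the defining genes LTF and MMP8 had no probe with a weight above 0 on every array. Their median log2 fold change was −0.23, that of CXCR2, whose log2 intensities were 9.14 with siRNA-A and 9.18 with siRNA-B against 9.34 and 9.44, below both controls. Their summed intensity, most of which came from CSF3R, was 7032 to 8349 after knockdown and 7604 to 7663 in the controls. Eosinophil and mast cell markers had 5 probes of 4 genes, with sums of 549 to 810 after knockdown and 626 to 683 in the controls. EPX, the eosinophil peroxidase, had a log2 intensity of 6.97 with siRNA-A and 8.66 with siRNA-B against 8.04 and 8.22. PRG2, the eosinophil major basic protein, is in the lists of granule genes and not in these marker sums. Its log2 intensity was 10.93 with siRNA-A and 12.34 with siRNA-B, against a control mean of 12.02. EPX and PRG2 were low with siRNA-A only. The markers PRG3 (5.99) and CPA3 (5.43, well above background on 3 arrays) were also lowest with siRNA-A. MS4A2, a mast cell marker, was highest with siRNA-A on both its probes (7.92 and 6.22). The part of such genes in the values of RNASE2, RNASE3 and CFD was not tested. The 16 probes of monocytic markers had a median of 0.031, with 7 lower and 9 higher after knockdown. Of these probes 3 lay below and 4 above both controls (21.4% and 15.2% of all probes). Among the monocytic markers CD14, a marker of mature monocytes, was called higher, at 8.39 and 8.71 against 7.52 and 7.47 (log2 fold change 1.05, adjusted p = 0.0355). It was also called under 11 of the 12 alternative settings (all but that without control siRNA-2, 1.03), with adjusted p from 0.0122 to 1. The marker lists of T and NK cells (summed intensity 362 to 375 after knockdown and 346 to 360 in the controls), B cells (2245 to 2402 and 2276 to 2364), erythroid and megakaryocytic cells (1628 to 1658 and 1654 to 1990) and epithelial cells and fibroblasts (129 to 158 and 133 to 144) held 0 called probes with limma, and 2 (HBB and CDH1) at an unadjusted p under 0.05; 14 of these 21 probes were well above background on all arrays. In pooled bulk RNA, fewer cells that express a granule gene and less of its RNA in each cell cannot be told apart.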

How the data were processed

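Total RNA of THP1 cells was measured on 4 single-colour Agilent 4x44K arrays, with 1 pool of 5 experiments on each. The authors extracted the spots with Agilent Feature Extraction 10.5.1.1 (per the labels) and deposited for each of them a raw intensity, without background correction or scaling between arrays, and a quality weight. The origin of the weights is not given in the sources used here. The deposited values equaled the median pixel signal for 100% of the spots. Background flags and the processed intensity came from the deposited scanner tables.

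The tables held 44495 spots, of which 1377 were controls. The 33323 other spots whose weight was above 0 on each array were used, and identical spots were averaged to 26219 probes. A linear model of the log2 intensities was fitted in limma (version 3.58.1, R 4.3.3), with the weights and no covariate, after the script was tested on simulated data. Probes were called at an unadjusted two-sided p under 0.005, and the adjustment by Benjamini and Hochberg covered every probe. Precision is limited by the number of arrays.

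The members and lists were chosen with earlier results of these data known. Outside the members, genes were named if called, if among the 3 largest differences of their list with arrays that did not overlap and a probe above background. Some marker genes, and some genes near members on chromosomes 19 and 14, were named too. PTX3, SERPINB6, CTSC, MYB, CEBPA, PRG2, PRG3, CPA3, EPX and MLLT3 were named after their values were seen. Names are those of the array, and some genes of the lists are not reported here. Alternatives were background subtraction with and without scaling, quantile and cyclic loess normalization, normexp, no weights, leaving out dim probes or each array in turn, an intensity trend, single spots and an adjusted threshold.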

Additional observations from a re-analysis of the deposited data

How the results depend on the processing

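The count of 1 called member probe (ELANE) became 0 with background-subtracted signal, scaled or unscaled, with quantile normalization, with cyclic loess, at an adjusted p under 0.05, and 0 to 0 when any 1 array was left out. It became 2 (ELANE and CTSG) with normexp, with the filter on dim probes and with an intensity trend, and stayed 1 without weights and on single spots. For ELANE, CTSG and PRTN3 each of the 12 settings gave a negative log2 fold change (−0.51 to −0.35, −0.54 to −0.29 and −0.43 to −0.22). AZU1 changed sign with quantile normalization (0.054), cyclic loess (0.073), normexp (0.062) and without siRNA-B (0.051, with a range of −0.11 to 0.051 over the arrays left out), and RNASE2 probe 2 changed sign without siRNA-A (0.063, with a range of −0.28 to 0.063). CFD ranged from −0.56 without siRNA-B to −0.038 without siRNA-A. The number of member probes below both controls ranged from 5 to 8, and the share of all probes moved with it. It was 5 with quantile normalization (19.7% of all probes) and cyclic loess (20.3%). It was 8 with unscaled background-subtracted signal (26.4%), without siRNA-A (33.2%) and without siRNA-B (45.3%). Causes of the lost calls were not tested. The fits with 1 array left out also had fewer arrays, and that part was not tested either. No paired analysis was made, because each array held a pool and no label pairs a knockdown array with a control array. No group had enough arrays to test for an outlying array.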
